A study of Arabidopsis thaliana with 26 samples.

Results

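The response of nitrogen-starved roots to transfer into fresh medium with potassium chloride (KCl) was examined on 8 of the 26 arrays of a nitrate time course. These were the 6 KCl arrays of 9, 12 and 15 min, 2 per time point, and the 2 arrays of time 0, all selected by their labels. KCl served as the mock treatment of potassium nitrate (KNO3) in this series. The plants were Arabidopsis thaliana, ecotype Columbia, 14 days old and grown hydroponically on ammonium succinate, then kept in medium without nitrogen for a day. Roots of the KCl groups were harvested 9, 12 or 15 min after the plants had been moved onto refreshed nitrogen-free medium supplemented with KCl, whereas time 0 roots were harvested before that transfer and received no treatment. Both groups thus shared the nitrogen starvation. Handling, fresh medium, potassium, chloride and elapsed minutes came together in every KCl sample and cannot be told apart. Each array was an Affymetrix ATH1 chip, which reads a gene through a probe set, and its values were MAS5 signals on a linear scale.

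Moving a plant between media is a mechanical, osmotic and ionic stimulus for its roots. Such stimuli are known to open calcium channels within seconds, to raise reactive oxygen at the cell wall and to switch on immediate-early genes, among them zinc-finger and WRKY transcription factors, calmodulin-like calcium sensors, U-box ubiquitin ligases and wall-modifying proteins. Many of the same genes respond to touch, wounding, cold and microbial patterns.

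The 8 arrays were alike in scale, with median signals of 207 to 227 and correlations between replicates of 0.945 to 0.971 on the log2 scale, the lowest at 12 min. The log2 signal ratio of the 3' to the 5' control probe sets of GAPDH, a sign of RNA quality, was -0.06 to 0.22 in KCl and -0.01 to 0.27 at time 0, and that of actin was 2.69 to 3.302 in KCl and 2.71 to 2.75 at time 0. Hybridization control spike-ins averaged 10.0 to 10.3 (log2 signal) at 12 and 15 min, 9.35 to 9.86 at 9 min and 9.36 to 9.92 at time 0, so the 9 min arrays matched time 0 and the later ones were brighter. The 8 arrays of 3 and 6 min in both salts, used in an alternative fit only, stood at 11.9 to 12.8. Of 34 root cell type markers 2 had a named probe set, EXPA7 and EXPA18, expansins of root hair cells, and both read above 500 on every array. The measured shoot markers RCA, LHCB4.1 and PRK (3 of 27) summed to 330 to 520 in KCl and 571 to 668 at time 0, low but higher at time 0. None of these 3 passed the test, and none was at 0 (log2 difference -0.46 for RCA, -0.75 for LHCB4.1, -1.16 for PRK). For LHCB4.1 and PRK all 6 KCl arrays lay below both time 0 arrays. The spread of the fit took in 2 KNO3 arrays bright in these markers (summed signal 1470.5 and 3599). With the resulting SE of 0.46 to 0.77, the test cannot decide whether these markers differed. The part that shoot tissue has in the differences below was not tested.

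Over the 3 time points together, 334 probe sets rose in KCl relative to time 0 and 138 fell. These 472 probe sets are 2.08% of the 22746 tested (1.47% higher, 0.607% lower; limma, Benjamini-Hochberg adjusted p under 0.05). A difference of more than 1 on the log2 scale was found for 100 of the rises and 15 of the falls. The median difference was 0.74 among rises and -0.61 among falls, against 0.02 over all probe sets. On 433 of the 472 the 6 KCl arrays lay entirely on one side of both time 0 arrays, while 12.3% of all probe sets were separated in this way. A single gene was annotated for 234 of the called probe sets, 170 higher and 64 lower. The number of calls rested on the time 0 arrays: 96 probe sets were called without time 0 replicate 2, 89 of them among the 472, and 248 without time 0 replicate 1, 167 of them among the 472. Without KCl 9 min replicate 2 there were 271 calls and without KCl 12 min replicate 2 there were 311.

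**Figure D1:**
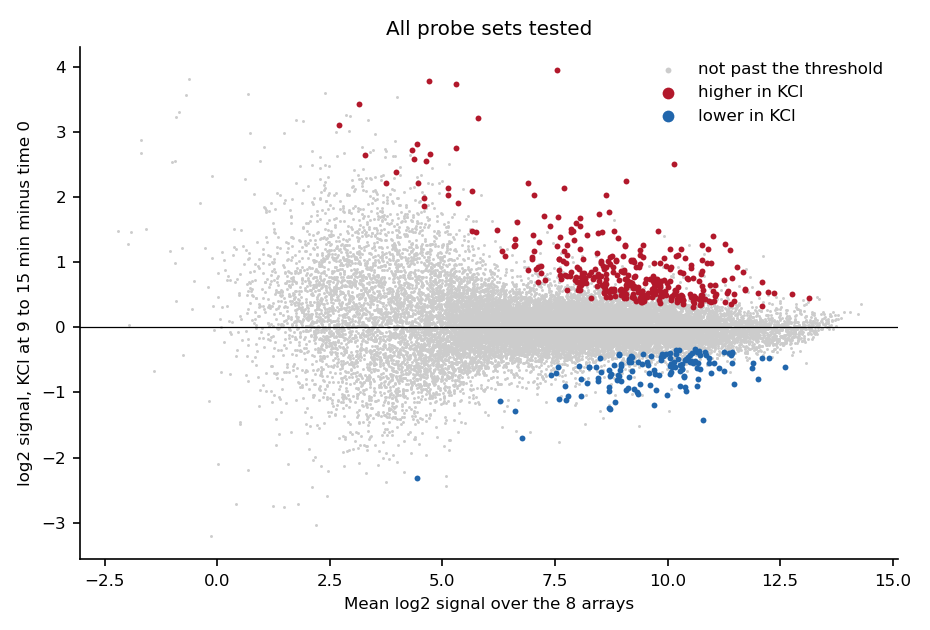
Difference in log2 signal between KCl at 9 to 15 min (6 arrays) and time 0 (2 arrays) against the mean log2 signal over the 8 arrays, 1 point per probe set. Red points mark the 334 probe sets higher in KCl and blue points the 138 lower ones, and the scatter of grey points widens at low signal.

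The largest rise was that of AT2G04050. Its signal was 425 and 471 at 9 min, 243 and 259 at 12 min, 366 and 563 at 15 min, against 36.7 and 15.8 at time 0, a difference of 3.95 ± 0.26 on the log2 scale (SE; limma adjusted p = 7.75e-07) that was 2.82 with 32 added to each signal. All 6 KCl arrays were far above a time 0 level that lay below the 25th percentile of each array. AT2G41730 read 612 to 1195 (median 789) over the 6 KCl arrays, against 159 and 175 on the time 0 arrays (log2 difference 2.25 ± 0.15, adjusted p = 7.75e-07); its probe set is of the kind that can bind transcripts of other genes. AT1G59660 read 147 to 516 (median 315) over the 6 KCl arrays, against 89.5 and 51.5 on the time 0 arrays (2.15 ± 0.28, adjusted p = 0.000665). In AT4G29780 the 6 arrays of KCl spanned 427 to 702, against 146 and 189.8 at time 0 (1.77 ± 0.16, adjusted p = 2.47e-05). None of these loci carries a symbol in the gene table used, so no role is given; that their arrays did not overlap with time 0 was a condition of the choice.

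The 15 largest rises, chosen among annotated probe sets with separated arrays and a mean signal of at least 200, ranged from 1.19 to 3.95 on the log2 scale. Besides the 4 above they were AT5G06730, AT3G02840, AT4G27654, AT2G27080, AT1G77640, AT4G27652, AT5G38910, AT3G55790, the expansin-like gene EXLA3, the cysteine proteinase gene CP1 and the plastid ribosomal protein gene rps15. Of these 15, 7 passed the test at all 3 time points. The 15 largest falls ranged from -1.26 to -0.80, and 2 of them passed at all 3 time points. Over all 22746 probe sets tested, 52 passed at all 3 time points, in either direction. Both sets of 15 were chosen on the same KCl and time 0 arrays. The 7 and the 2 are therefore not independent of that choice. BCAT4 and MSRB5 are the falls that have a symbol. Because few loci here carry one, all 42 called probe sets with a symbol (33 higher, 9 lower) and families grouped by symbol are described too, a choice made after their values were seen. The other falls, 13 loci without a symbol, were AT5G26260, AT2G19970, AT1G56680, AT4G11210, AT1G07690, AT1G49570, AT5G24165, AT1G14220, AT1G03820, AT3G27400, AT1G07680, AT1G12080 and AT3G44450.

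**Figure D2:**
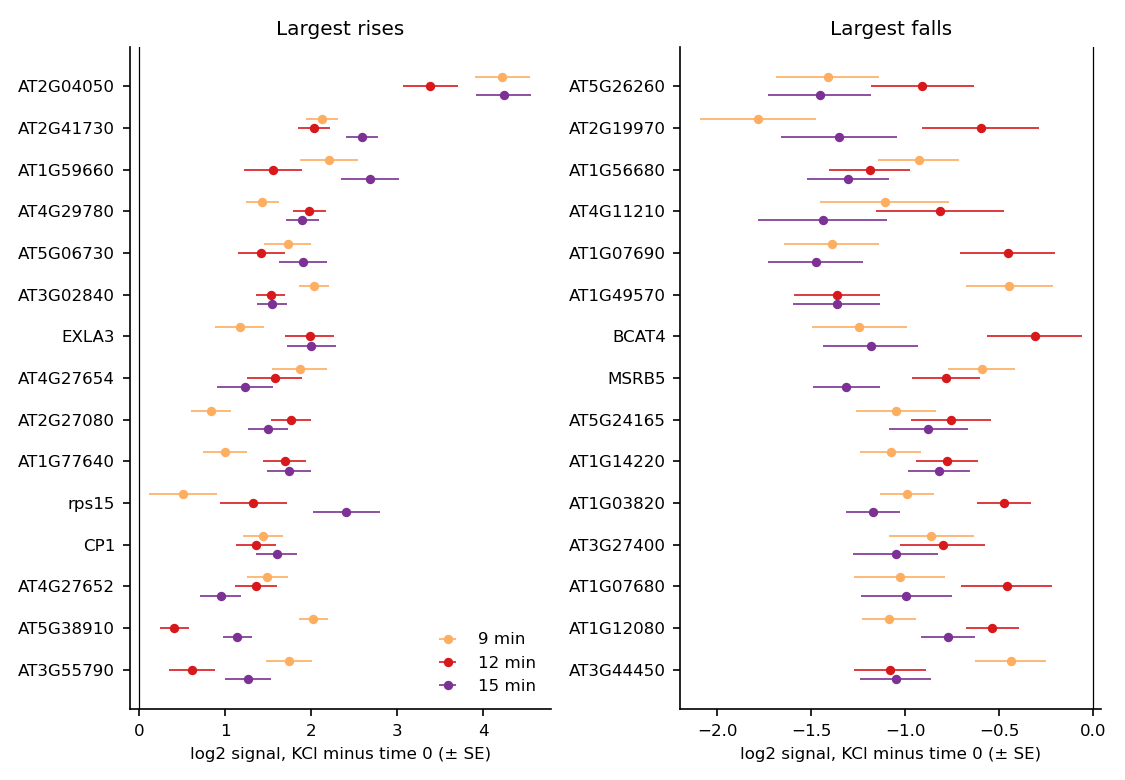
Difference in log2 signal from time 0 at 9, 12 and 15 min of KCl (2 arrays each; bars, SE of the limma fit) for the 15 largest rises (left) and the 15 largest falls (right). AT2G04050 stands above 3 at each time point, and the differences of AT5G38910 and AT3G55790 are smallest at 12 min.

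Genes of wall loosening moved both ways. EXLA3, an expansin-like protein related to the expansins that loosen cell walls, read 132 and 148 at 9 min, 224 and 270.2 at 12 min, 209 and 297 at 15 min, against 68.2 and 56.9 at time 0 (1.72 ± 0.23, limma adjusted p = 0.00094). Its relative EXLA1 read 542 to 821 (median 703) over the 6 KCl arrays, against 289 and 399 on the time 0 arrays (1.03 ± 0.21, adjusted p = 0.02). Both were separated from time 0 on all arrays. EXO, or EXORDIUM, a brassinosteroid-responsive gene that promotes cell expansion, read 717 to 2170.0 (median 1401) over the 6 KCl arrays, against 719 and 613 on the time 0 arrays (1.09 ± 0.18, adjusted p = 0.0054), and 1 KCl array overlapped with time 0. XTH16, a xyloglucan endotransglucosylase that cuts and rejoins hemicellulose, fell, at 503 to 661 (median 605) over the 6 KCl arrays, against 816 and 914 on the time 0 arrays (-0.54 ± 0.13, adjusted p = 0.0485). In the cell wall remodelling list, 12 of 32 genes had a named probe set, of which 1, XTH16, fell, none rose, and 11 did not pass, at a list median of -0.18. Over all probe sets 1.47% rose and 0.607% fell. XTH26 was at -1.14 over the 3 times (adjusted p = 0.0747) and fell at 9 min (-1.79 ± 0.38, adjusted p = 0.028). EXPA15 and EXPA4 differed among the 3 times (limma F test, adjusted p = 0.031 and 0.0268), each below time 0 at 9 min (log2 difference -0.67 and -0.60) and above it at 12 min (0.47 and 0.34), without passing against time 0 at either time. Over all 27 expansins and xyloglucan endotransglucosylases named by symbol, 2 rose and 1 fell, with a median of -0.11, against the same 1.47% and 0.607% and a median of 0.02 over all probe sets. The root hair expansins EXPA7 and EXPA18 did not pass over the 3 times together (-0.55 and -0.52, adjusted p = 0.0677 and 0.0756), but both fell at 9 min (-0.90 ± 0.18, adjusted p = 0.021 for EXPA7 and -0.80 ± 0.17, adjusted p = 0.0308 for EXPA18). In whole roots fewer cells of a type and less RNA per cell cannot be told apart. Under the alternatives tried, the highest adjusted p was 0.0369 for EXLA3, 0.174 for EXO, 0.217 for EXLA1 and 0.522 for XTH16.

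Among calcium sensors and early regulators, CML38 read 1349 and 1330.2 at 9 min, 958 and 2368 at 12 min, 1655 and 2553 at 15 min, against 738 and 808 at time 0. This calmodulin-like protein was higher on every KCl array, with a wide spread (1.06 ± 0.26, limma adjusted p = 0.0485). AT3G01830, of the same list, read 212 to 286 (median 249) over the 6 KCl arrays, against 118 and 167 on the time 0 arrays (0.80 ± 0.18, adjusted p = 0.03). CML37 read 118 to 164 (median 131) over the 6 KCl arrays, against 51.8 and 96.3 on the time 0 arrays, a difference of 0.93 that did not pass (adjusted p = 0.165). The touch and calcium list had 11 measured genes of 41, of which 2 rose and none fell, against 1.47% and 0.607% of all probe sets, and its median was -0.02, against 0.02. AT1G76640 was at 1.13 with a wide scatter (adjusted p = 0.554), and CML23, CML43, CML42 and the glutamate receptor-like channels GLR3.3 and GLR3.6 lay between -0.40 and -0.02 without passing. The lowest member, AT2G41090, read 195 to 247 (median 223) over the 6 KCl arrays, against 289 and 392 on the time 0 arrays (-0.61, adjusted p = 0.348), so its arrays were separated but it did not pass. No named probe set was found for the TCH touch genes. SRC2, named in the gene table for a cold-regulated soybean gene, was already bright and rose to 5220.1 (median; 3619 to 6500.1) in KCl, against 3399.5 and 2770.3 at time 0 (0.70 ± 0.13, adjusted p = 0.00834). The highest adjusted p over the alternatives was 0.333 for CML38, 0.308 for AT3G01830 and 0.26 for SRC2.

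Among early stress transcription factors STZ and WRKY53 rose. STZ, or ZAT10, a zinc-finger repressor induced by salt, cold and wounding, read 1811 and 1960.4 at 9 min, 1665 and 1657 at 12 min, 1499.6 and 1796 at 15 min, against 819 and 959.6 at time 0 (0.96 ± 0.12, limma adjusted p = 0.000562). The 6 KCl arrays stayed within a narrow range, well apart from time 0. WRKY53, a regulator of defence and leaf senescence, read 312 to 502 (median 425) over the 6 KCl arrays, against 212 and 268 on the time 0 arrays (0.77 ± 0.14, adjusted p = 0.00855). Of 7 measured members of the list (71 listed), 2 rose and none fell, against 1.47% and 0.607% of all probe sets. All 7 differences were above 0, as were 12069 of the 22746 over all probe sets, and the median was 0.50, against 0.02 over all probe sets. ORA47, an ethylene response factor of the wound response, was at 0.88 (adjusted p = 0.141), WRKY22 at 0.50 (adjusted p = 0.282) and WRKY6 at 0.23 (adjusted p = 0.445). The MADS-box gene AGL19 rose as well, at 223 to 376 (median 313) over the 6 KCl arrays, against 169.7 and 156 on the time 0 arrays (0.90 ± 0.20, adjusted p = 0.0272). STZ passed under each alternative (highest adjusted p = 0.0222), whereas WRKY53 reached 0.138 and AGL19 0.342.

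**Figure D3:**
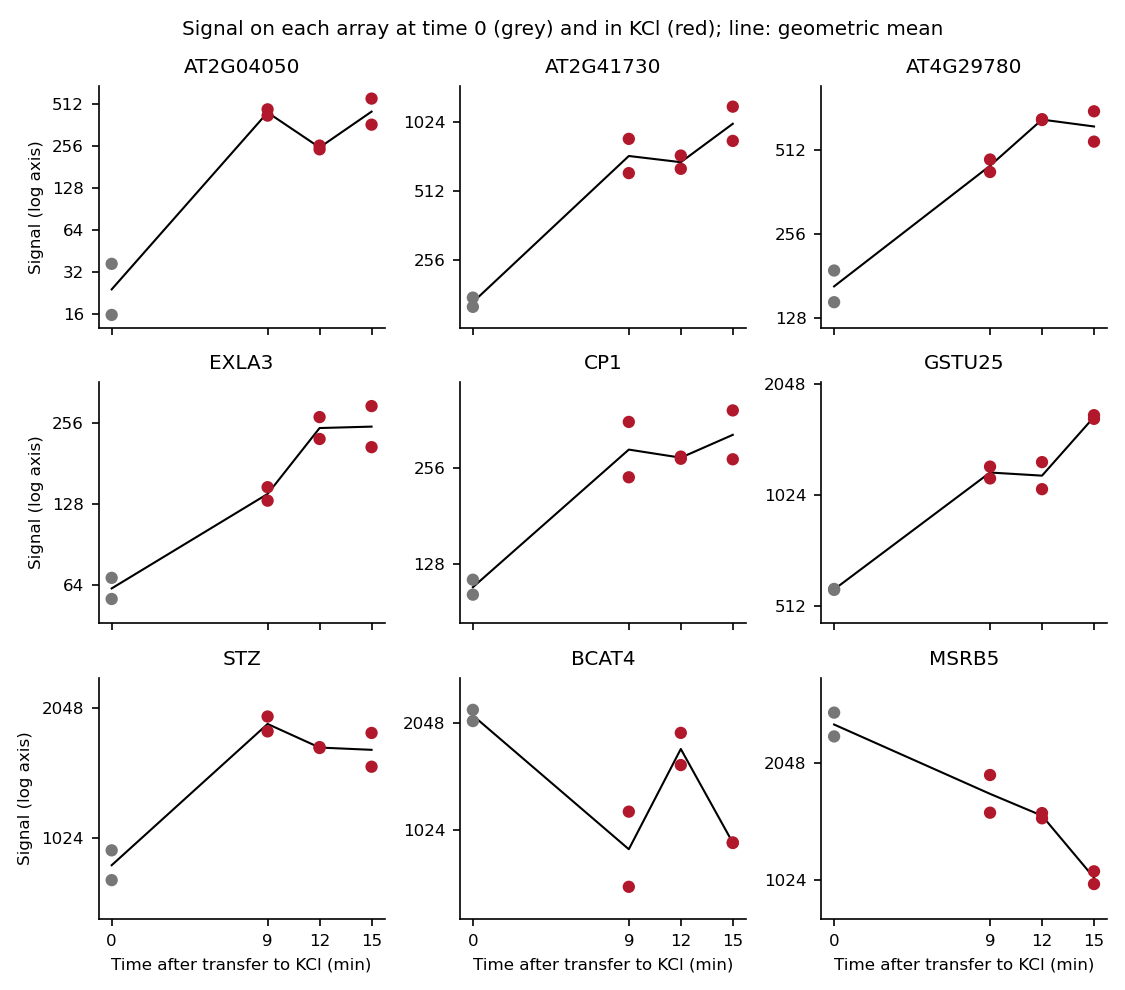
Signal on each array at time 0 (grey, 2 arrays) and at 9, 12 and 15 min of KCl (red, 2 arrays each) for 9 genes, on a log2-scaled axis; lines join geometric means. Rises of AT2G04050, CP1, GSTU25 and STZ are in place at 9 min, EXLA3 and AT4G29780 are higher at 12 and 15 than at 9 min, and BCAT4 at 12 min lies nearer to time 0 than at 9 or 15 min.

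Some genes of defence signalling and protein turnover rose, mostly by less than 1 on the log2 scale. BIK1, a cytoplasmic kinase that relays microbial pattern signals, read 1102 to 1406 (median 1292) over the 6 KCl arrays, against 1070.2 and 881 on the time 0 arrays (0.39 ± 0.09, limma adjusted p = 0.0338). PUB23, a U-box ubiquitin ligase that dampens pattern-triggered immunity, read 878 to 1384 (median 1226) over the 6 KCl arrays, against 899 and 799.5 on the time 0 arrays (0.47 ± 0.11, adjusted p = 0.0377), with 1 KCl array between the time 0 values. Its relatives PUB22 and PUB24 were at 0.30 and 0.19 and did not pass. The defence signalling list had 5 measured genes of 31, of which 3 rose and none fell, against 1.47% and 0.607% of all probe sets, and its median was 0.39; the third riser was EXO, a growth gene described above. Of 9 U-box genes named by symbol, 2 rose, PUB23 and PUB26, and the other differences were above 0 without passing, beside 1.47% called higher over all probe sets. PUB26 was dimmer, at 58.8 to 222 (median 86.2) over the 6 KCl arrays, against 40.3 and 46.8 on the time 0 arrays (1.17 ± 0.27, adjusted p = 0.0349). SAG101, a lipase-like partner of an immune regulator, read 209 to 379 (median 299.8) over the 6 KCl arrays, against 193 and 162 on the time 0 arrays (0.69 ± 0.15, adjusted p = 0.0225).

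Other genes with a symbol that rose were CHI, OSM34, CCR2 and FACT. The chitinase gene CHI read 2535 and 2585 at 9 min, 1543 and 1490.4 at 12 min, 2053 and 2197 at 15 min, against 1064 and 1160.3 at time 0 (0.86 ± 0.13, limma adjusted p = 0.00163), and each KCl array exceeded time 0. OSM34, an osmotin of the thaumatin-like antimicrobial proteins, read 6349 to 9598 (median 7493) over the 6 KCl arrays, against 5722 and 4999.7 on the time 0 arrays (0.51 ± 0.11, adjusted p = 0.0268). CCR2, a cinnamoyl-CoA reductase of lignin precursor synthesis, read 690.3 to 1192 (median 876) over the 6 KCl arrays, against 591 and 587 on the time 0 arrays (0.59 ± 0.13, adjusted p = 0.0318). FACT, which transfers caffeoyl groups to fatty alcohols of root waxes, read 1809 to 2258 (median 1934) over the 6 KCl arrays, against 1542 and 1376 on the time 0 arrays (0.43 ± 0.10, adjusted p = 0.0338). These 4 genes were well expressed before transfer, and their rises were under 1 on the log2 scale. The highest adjusted p over the alternatives was 0.611 for BIK1, 0.496 for PUB23, 0.321 for PUB26, 0.417 for SAG101, 0.0952 for CHI, 0.436 for OSM34, 0.312 for CCR2 and 0.483 for FACT.

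Several protease genes changed. CP1, a papain-like cysteine proteinase, read 359 and 240.0 at 9 min, 279 and 275 at 12 min, 390.1 and 274 at 15 min, against 102 and 114 at time 0 (1.47 ± 0.19, limma adjusted p = 0.000715), and held at each alternative (highest adjusted p = 0.0222). SBT3.3, a subtilase known from immune priming, was barely seen at time 0, with 11.7 and 9.43, and read 66.9 to 115 in KCl, so no KCl array was near time 0. The fitted log2 difference of 3.21 ± 0.31 (adjusted p = 6.65e-05) was 1.61 when 32 was added to each signal. It passed in each of the 16 alternatives that kept it. The aspartyl protease gene NANA read 2259.9 to 2492 (median 2348) over the 6 KCl arrays, against 1445 and 1578 on the time 0 arrays (0.65 ± 0.12, adjusted p = 0.00771), and the serine carboxypeptidase-like gene scpl46 read 594 to 794 (median 689) over the 6 KCl arrays, against 509 and 385 on the time 0 arrays (0.63 ± 0.15, adjusted p = 0.0415). In the opposite direction SBT4.12, another subtilase, read 779 to 1270.1 (median 1025) over the 6 KCl arrays, against 1491 and 1516 on the time 0 arrays (-0.62 ± 0.13, adjusted p = 0.0202). Of 7 subtilases named by symbol 1 rose and 1 fell, beside 1.47% and 0.607% of all probe sets. For NANA, scpl46 and SBT4.12 the adjusted p reached 0.0909, 0.627 and 0.248.

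Detoxification was represented by GSTU25, a glutathione transferase of the tau class, which joins glutathione to reactive compounds. It read 1222 and 1135 at 9 min, 1062 and 1256 at 12 min, 1645 and 1683 at 15 min, against 570.3 and 567 at time 0 (1.21 ± 0.12, limma adjusted p = 6.65e-05). Time 0 arrays were nearly identical and every KCl array lay above 1000. It held in each alternative, with a highest adjusted p of 0.00734. The other measured members of the reactive oxygen list, the glutathione reductases GR1 and GR and the copper chaperone CCS, were at 0.25, 0.18 and -0.32 and did not pass, so 1 of 4 rose and none fell, against 1.47% and 0.607% of all probe sets. Among 11 tau-class genes named by symbol GSTU25 was the one called; 1.47% of all probe sets rose. The median of the 11 was -0.24, with GSTU26 at -0.36 (adjusted p = 0.185) and GSTU20 at -0.58 (adjusted p = 0.186). The cytochrome P450 gene CYP71B6 rose, at 2266 to 3364 (median 2904) over the 6 KCl arrays, against 1930.1 and 1979 on the time 0 arrays (0.52 ± 0.11, adjusted p = 0.0202), as 1 of 26 P450 genes named by symbol, beside 1.47% over all probe sets. Its call was lost in 5 of 17 alternatives (highest adjusted p = 0.203).

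The remaining rises with a symbol, each past the threshold, were spread over other functions: AR781, the carnitine transporter OCT1, the acylhydrolase DLAH, the linker histone HON4, SPINDLY (SPY), a sugar transferase that restrains gibberellin signalling, the fructan exohydrolase cwINV6, SAY1, the RNA-binding protein AtRZ-1c, the dim genes DL1D, a dynamin-like protein, and COR27, a cold-regulated gene. The clearest of these was AR781, at 471 to 582 (median 544) over the 6 KCl arrays, against 249 and 245 on the time 0 arrays (1.102 ± 0.17, limma adjusted p = 0.00223). Of the others except COR27 and DL1D, the log2 difference ranged from 0.37 for AtRZ-1c to 0.72 for OCT1. COR27 and DL1D had time 0 signals of 6.11 to 16.5, below the 25th percentile of each array; their fitted differences of 2.21 and 2.14 were 0.75 and 0.93 with 32 added to each signal. The smallest of the rises, AtRZ-1c, lost its call in 15 of 17 alternatives.

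Among the falls, BCAT4 and MSRB5 were the largest with a symbol. BCAT4, the aminotransferase that starts methionine chain elongation for aliphatic glucosinolates, read 1153 and 710.4 at 9 min, 1557 and 1916 at 12 min, 946 and 942 at 15 min, against 2067 and 2222 at time 0 (-0.91 ± 0.21, limma adjusted p = 0.0319). It was low at 9 and 15 min, while the 12 min arrays lay nearer to time 0. MSRB5, which reduces oxidised methionine in proteins, read 1906 and 1524 at 9 min, 1474 and 1520.2 at 12 min, 1076 and 998 at 15 min, against 2396 and 2760.2 at time 0 (-0.90 ± 0.15, adjusted p = 0.00448). Of the other measured members of its family, MSRB6 was at -0.48 (adjusted p = 0.0938) and MSRB9 at 0.30 (adjusted p = 0.275). The highest adjusted p over the alternatives was 0.359 for BCAT4 and 0.137 for MSRB5.

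Among 47 UDP-glucosyl transferases named by symbol, which attach glucose to hormones and other small molecules, 2 fell and none rose, at a median of 0.16, beside 0.607% and 1.47% of all probe sets. UGT74D1, which glucosylates auxin compounds, read 983 to 1226 (median 1134) over the 6 KCl arrays, against 1958 and 1428 on the time 0 arrays (-0.59 ± 0.13, limma adjusted p = 0.0292), and UGT85A2 read 303 to 360.3 (median 330.1) over the 6 KCl arrays, against 503 and 425 on the time 0 arrays (-0.47 ± 0.11, adjusted p = 0.0349). The defensin gene PDF2.5 read 1248 to 1579.8 (median 1461) over the 6 KCl arrays, against 1856 and 2257 on the time 0 arrays (-0.52 ± 0.11, adjusted p = 0.0208). The histone chaperone ASF1B and the ubiquitin-conjugating enzyme UBC27 fell by 0.57 and 0.34 on the log2 scale (adjusted p = 0.0349 and 0.0429). Of the falls without a symbol, AT5G26260 read 262 to 461 (median 331) over the 6 KCl arrays, against 883 and 745 on the time 0 arrays (-1.26 ± 0.22, adjusted p = 0.00771), and AT1G56680 read 299.6 to 494 (median 360.2) over the 6 KCl arrays, against 837 and 815 on the time 0 arrays (-1.14 ± 0.18, adjusted p = 0.00273). All arrays of KCl were below both time 0 arrays for these genes. The shoot markers were also lower in KCl, as given above. The call was lost in 9 of 17 alternatives for ASF1B (highest adjusted p = 0.257) and in 13 of 17 for UBC27 (0.401). Adjusted p reached 0.346 for UGT74D1, 0.58 for UGT85A2, 0.464 for PDF2.5, 0.0933 for AT5G26260 and 0.0567 for AT1G56680 in the alternatives.

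Other pathways of the transferred root had no call over the 3 times together, beside 2.08% called over all probe sets. None of 10 measured auxin and cytokinin response genes passed (median 0.01), with the auxin-conjugating enzyme WES1 at 0.50 (adjusted p = 0.141). None passed among 3 low-oxygen genes, 3 abscisic acid and cold genes, 2 jasmonate, 1 ethylene, 2 clock, 2 sugar and energy and 2 phosphate, sulfur and iron genes, nor among 1 gene each of potassium and chloride transport and of nitrogen uptake. PDC2, a pyruvate decarboxylase of fermentation, read 3097 to 5344 (median 4271) over the 6 KCl arrays, against 2989 and 2513 on the time 0 arrays, a difference of 0.62 that did not pass (adjusted p = 0.258). NRT2.5, a high-affinity nitrate transporter of nitrogen-starved roots, read 1705 and 1908 at 9 min, 2888 and 4400.0 at 12 min, 3181 and 3358 at 15 min, against 1674 and 1853 at time 0 (0.65, limma adjusted p = 0.061). Its 9 min arrays overlapped with time 0, whereas it rose at 12 min (1.02 ± 0.21, adjusted p = 0.0256) and at 15 min (0.89 ± 0.21, adjusted p = 0.0388), and its signal differed among the 3 times (limma F test, adjusted p = 0.0367). The 4 common reference genes did not pass and lay between -0.15 and 0.21. Heat shock and aquaporin members had no named probe set, as was the case for ADH1, HAK5, CCA1 and LHY. Lists with so few measured genes say little of a pathway.

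**Figure D4:**
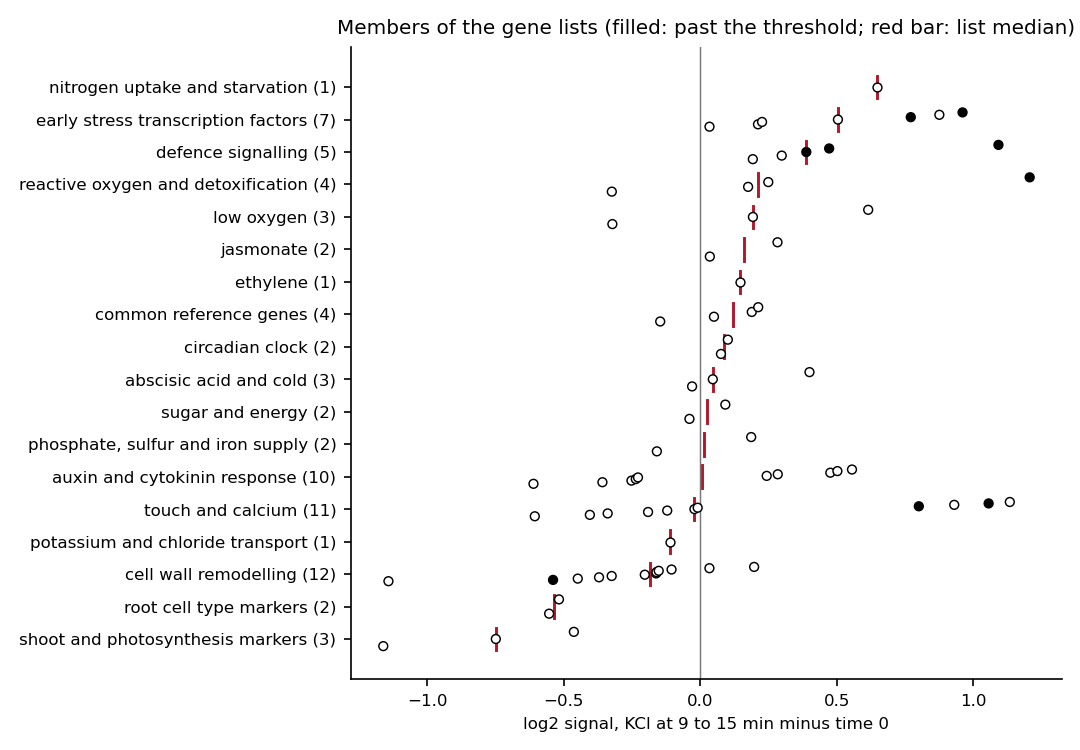
Difference in log2 signal between KCl at 9 to 15 min and time 0 for each measured member of 18 gene lists (number of members in brackets). Filled points passed the test, open points did not, and red bars are list medians; the calls lie in 5 lists, with early stress transcription factors and defence signalling to the right of 0.

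Taken singly, 9 min gave 328 calls against time 0 (1.44% of probe sets; 212 higher, 116 lower), 12 min gave 269 (1.18%; 166 higher, 103 lower) and 15 min gave 388 (1.71%; 272 higher, 116 lower). In total, 700 probe sets passed at 1 or more time points, and 52 passed at each of the 3, with the same sign throughout. These counts rest on 2 arrays per time point: the 9 min count was 192 without KCl 9 min replicate 1 and 47 without replicate 2, the 12 min count was 76 without KCl 12 min replicate 1, and the 15 min count was 80 without KCl 15 min replicate 2. Without time 0 replicate 2 the counts at 9, 12 and 15 min were 77, 67 and 82, and without time 0 replicate 1 those at 9 and 12 min were 189 and 101. The spike-ins of the 9 min arrays matched time 0, and the 12 and 15 min arrays were brighter in them.

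Between the time points, 426 probe sets differed (1.87%; limma F test over 9, 12 and 15 min, adjusted p under 0.05). In 255 of them 12 min was the lowest of the 3 means, in 135 the highest, and in 36 it lay between. Of the 426, 46 were among the 472 called against time 0. Between pairs of times, 859 probe sets differed between 12 and 9 min (3.78%; 314 higher and 545 lower at 12 min). This count was 54 and 118 without KCl 9 min replicate 2 and 1, and 88 without KCl 12 min replicate 1. Between 15 and 12 min 5 differed (0.022%), AT4G33710 among 3 higher at 15 min and 2 lower ones, the other 4 being unnamed here, while 2569 had an unadjusted p under 0.05. That count was 0 without KCl 15 min replicate 2, 48 without KCl 15 min replicate 1 and 87 without KCl 12 min replicate 2. From 9 to 15 min a single probe set passed (0.0044%), AT5G10770, with 379.9 and 351 at 15 min, against 123 and 69.0 at 9 min, while 2215 had an unadjusted p under 0.05. AT5G38910 read 5844 and 5813 at 9 min, 1713 and 2111 at 12 min, 3247 and 3070.2 at 15 min, and AT4G33710 read 3885 and 3308 at 9 min, 291 and 281 at 12 min, 1431 and 1439 at 15 min (adjusted p among times = 0.00122 and 0.00118). Both were highest at 9 min and lowest at 12 min, where AT4G33710 lay below its time 0 signals of 546 and 303. AT1G26240 and AT3G60420 also read lower at 15 than at 9 min, but no probe set passed as lower in the test of 15 minus 9 min. The 426 calls were 6 without KCl 9 min replicate 2, 46 without KCl 9 min replicate 1, 33 without KCl 12 min replicate 1 and 243 without KCl 12 min replicate 2. When the 12 min arrays were left out of the mean, 567 probe sets were called against time 0, of which 404 were among the 472.

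The 6 KNO3 arrays of 9, 12 and 15 min came from plants transferred in the same way, and their values stand beside those of KCl. The KNO3 and KCl comparisons share the time 0 arrays, and the genes below were chosen for their KCl values, so their difference from KNO3 is not independent of that choice. KNO3 differed from KCl at 1107 probe sets (4.87%; 504 higher, 603 lower). A KNO3 array of 15 min had a summed shoot marker signal of 3599 and another of 12 min had 1470.5; without these 2 arrays 821 probe sets differed. Of 68 named genes 22 differed between the salts, 24 without those arrays, 20 in both; CCR2 and UGT74D1 were called with all 6 KNO3 arrays only.

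EXO read 357 to 724 (median 589.5) in KNO3, 717 to 2170.0 (median 1401) in KCl and 719 and 613 at time 0 (KNO3 minus KCl -1.38 ± 0.13, limma adjusted p = 8.05e-06). CML38 read 465 to 871 (median 666) in KNO3, 958 to 2553 (median 1502) in KCl and 738 and 808 at time 0 (-1.30 ± 0.18, adjusted p = 0.000554), and AT1G59660 read 91.8 to 164 (median 109.8) in KNO3, 147 to 516 (median 315) in KCl and 89.5 and 51.5 at time 0 (-1.41 ± 0.20, adjusted p = 0.000461). For EXO and CML38 the KNO3 arrays lay around or below time 0, and for AT1G59660 they lay above time 0 but mostly below the KCl arrays. GSTU25 was intermediate, at 657 to 937 (median 756) in KNO3, 1062 to 1683 (median 1239) in KCl and 570.3 and 567 at time 0 (-0.77 ± 0.08, adjusted p = 3.50e-05). AT2G04050 was above time 0 in both salts, at 178 to 320.0 (median 232) in KNO3, 243 to 563 (median 395) in KCl and 36.7 and 15.8 at time 0 (-0.62 ± 0.19, adjusted p = 0.0691). STZ read 1281 to 2621 (median 1679) in KNO3, 1499.6 to 1960.4 (median 1731) in KCl and 819 and 959.6 at time 0 (0.02 ± 0.09, adjusted p = 0.945). WRKY53 differed by 0.02 ± 0.10 (adjusted p = 0.936), EXLA3 by 0.00 ± 0.16 (adjusted p = 0.999) and AT4G29780 by -0.01 ± 0.11 (adjusted p = 0.986). For STZ, WRKY53, EXLA3 and AT4G29780 the arrays of both salts overlapped, and a p above the threshold does not show that the salts acted alike.

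Of the falls, MSRB5 read 2069.8 to 4084 (median 2769.6) in KNO3, 998 to 1906 (median 1497) in KCl and 2396 and 2760.2 at time 0 (KNO3 minus KCl 0.98 ± 0.10, limma adjusted p = 2.62e-05), and BCAT4 read 1464 to 3525 (median 2096) in KNO3, 710.4 to 1916 (median 1049) in KCl and 2067 and 2222 at time 0 (0.87 ± 0.15, adjusted p = 0.00218). SBT4.12 read 1263 to 2656 (median 1678) in KNO3, 779 to 1270.1 (median 1025) in KCl and 1491 and 1516 at time 0 (0.82 ± 0.09, adjusted p = 4.32e-05). In KNO3 these 3 genes thus spanned the time 0 level. The highest KNO3 values of MSRB5 and BCAT4 were on the 15 min array bright in shoot markers. Without both bright KNO3 arrays, KNO3 minus KCl was 0.83 for MSRB5, 0.83 for BCAT4 and 0.75 for SBT4.12. At 20 min of KCl AT2G04050 averaged 176, STZ 892, BCAT4 2826 and MSRB5 2891, against time 0 means of 26.2, 889, 2145 and 2578. All 15 of the largest rises averaged above time 0 at 20 min of KCl. Of the 15 largest falls 11 averaged below it, and BCAT4 and MSRB5 were among the exceptions. These values are set against the same time 0 arrays that chose the genes.

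**Figure D5:**
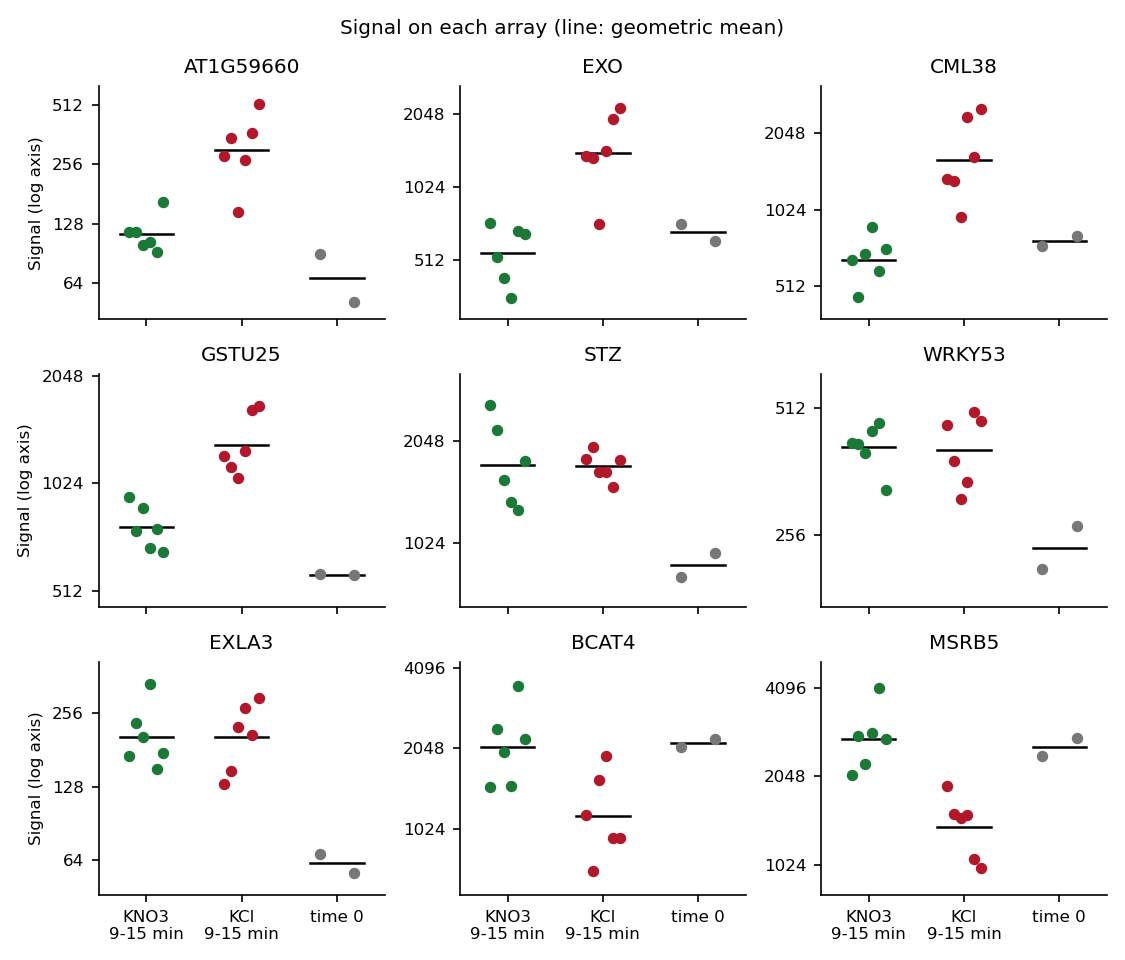
Signal on each array of KNO3 at 9, 12 and 15 min (green, 6 arrays), KCl at the same times (red, 6 arrays) and time 0 (grey, 2 arrays) for 9 genes, on a log2-scaled axis; bars are geometric means. EXO and CML38 are highest in KCl, with 1 KCl array of EXO at the time 0 level; STZ, WRKY53 and EXLA3 are above time 0 in both salts, and BCAT4 and MSRB5 are low in KCl.

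Across 17 alternative settings, 12 of the 68 named genes kept their call in each setting they could be tested in: AT2G04050, AT2G41730, AT1G59660, AT4G29780, AT5G06730, AT3G02840, AT2G27080, EXLA3, CP1, GSTU25, STZ and SBT3.3. No named gene changed direction in any of the 1152 values obtained, but all 68 were chosen as calls of this same comparison. The 15 largest rises and 15 largest falls also had to have separated arrays. A kept direction was thus largely set by the choice and is no separate support. Each of the 12 is a rise.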

How the data were processed

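Signals were measured on 26 ATH1 arrays, 2 per group in 13 groups. The authors deposited MAS5 signal intensity on a linear scale. A target median of 150 is stated in the methods, but every array had a 2% trimmed mean of 500.0, so signals were used as deposited and read only relative to each other. Detection calls and array depth were not used here, and the number of arrays limits precision. Replicate arrays are described as biological replicates, and p-values measure the spread between them.

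Of 22810 probe sets, 64 controls were left out. Intensities were taken as log2 without an offset and fitted with limma 3.58.1 in R 4.3.3 (lmFit, eBayes with trend) over 18 arrays in 9 groups, time 0 and both salts at 9, 12, 15 and 20 min, with 9 residual and 6.78 prior degrees of freedom. All groups share a spread. The 3 and 6 min arrays were left out and used in an alternative. Adjusted p-values are Benjamini-Hochberg over 22746 probe sets. An exact permutation test of 6 against 2 arrays could not go below a two-sided p of 0.0714 and was not used. On simulated data of the main comparison (22746 probe sets), 12, 36, 39 and 41 of 50 genes changed by 0.5, 1, 2 and 3 on the log2 scale were recovered, with 10 false calls. Each probe set was given its own random scatter there, so deviations common to a whole array were left out. The 10 false calls therefore do not tell how many of the 472 real calls are false. The number of real calls rested on the time 0 arrays, as given above.

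In the platform annotation 13513 probe sets had 1 gene, 503 had more than 1 and 8730 were unnamed here. Of the first kind, 13484 matched a locus of assembly TAIR10.1 and 1580 had a symbol of their own. Of 564 entries in 20 gene lists, 75 were measured. Named genes were the 15 largest rises and falls by log2(signal + 32) among annotated calls with separated arrays and a mean of at least 200, up to 4 called members per list, and the 4 largest each way between 15 and 9 min. Called genes with a symbol, families by symbol, the exclusion of the 12 min arrays and of 2 KNO3 arrays, and the pairs of times with 12 min were added after seeing values. Members and lists were chosen with earlier results of these data known. Promoter motifs were not analysed here. The alternatives covered trend, arrays in the fit, a signal filter, an offset, quantile normalization, a replicate block and a linear model on linear signals. In addition, each of the 8 arrays of KCl at 9 to 15 min and time 0 was left out in turn.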

Additional observations from a re-analysis of the deposited data

Results flagged for a closer look

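Of 68 named genes, 22 differed between the salts at 9 to 15 min by the test of KNO3 minus KCl (limma, adjusted p under 0.05). Over all probe sets 1107 of 22746 did (4.87%). The log2 difference was negative, with KNO3 lower than KCl, for AT2G41730 (-0.76), AT1G59660 (-1.41), AT2G27080 (-0.79), AT1G77640 (-1.05), EXO (-1.38), GSTU25 (-0.77), CML38 (-1.30), EXLA1 (-0.78), NANA (-0.51), scpl46 (-0.39), CCR2 (-0.38). It was positive, with KNO3 higher, for AT5G26260 (0.75), AT1G56680 (0.70), AT1G07690 (0.76), AT1G49570 (0.50), BCAT4 (0.87), MSRB5 (0.98), AT5G24165 (0.67), AT1G14220 (0.64), AT1G12080 (0.50), UGT74D1 (0.42), SBT4.12 (0.82). These genes were chosen for their KCl signals, which enter this difference too. Another 5 of the 68 differed among 9, 12 and 15 min of KCl (limma F test), as did 1.87% of all probe sets. Their adjusted p was 0.0451 for rps15, 0.00122 for AT5G38910, 0.0403 for AT1G03820, 0.0418 for CHI and 0.0151 for OCT1. No named gene had a KCl array set apart from the other 5 by Dixon's criterion for 6 values, in 68 genes examined. Those 6 arrays come from 3 times, and differences between times widen their range, so a deviating array can be missed. CML38, with 958 and 2368 at 12 min, was not flagged.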

How the results depend on the processing

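Of 76 counts of calls under other settings than leaving out an array, 44 stayed within 1.5 times the count given above. With all 26 arrays the counts were 210 for KCl over the 3 times, 140, 89 and 175 at 9, 12 and 15 min, 49 among times, 132 for 12 minus 9 min, 0 for 15 minus 12 min, 211 for KNO3 minus time 0 (350 in the fit of 18 arrays) and 601 for KNO3 minus KCl. Without the intensity trend they were 168, 54, 79, 105, 16, 182 and 576, and 172, 3 and 2 for 12 minus 9, 15 minus 12 and 15 minus 9 min. An ordinary linear model on linear signals gave 108, 52, 72 and 49 against time 0. The 6 KCl arrays as 1 group gave 116, and the filter at the 40th percentile gave 505 at 9 min, 1289 for 12 minus 9 min and 8 for 15 minus 12 min, which also had 11 calls after quantile normalization and 3 higher of 4 with an offset of 32. Over the 8 arrays alone, 139 differed among times and 2 between 15 and 12 min. Between 15 and 9 min, an offset of 32 gave 2 calls and a replicate block 0. Leaving out each array in turn gave 96 to 427 for KCl over the 3 times, 47 to 338, 67 to 263 and 80 to 359 at 9, 12 and 15 min, 6 to 482 among times, 54 to 853 between 12 and 9 min, 0 to 87 between 15 and 12 min, 0 to 12 between 15 and 9 min, 160 to 343 for KNO3 minus time 0 and 580 to 1062 for KNO3 minus KCl. Without time 0 replicate 2, 90.6% of the calls were rises, against 59.7% without replicate 1 and 70.8% with both. With a replicate block the main count was 460, 427 of them shared. Same-numbered arrays did not deviate together (correlations of -0.07 to 0.06 over 36 pairs of groups), so the numbers were not taken as pairs. Of the 68 named genes, 39 lost their call without the trend, 30 with 26 arrays, 45 with the KCl arrays as 1 group, 36 and 47 without time 0 replicate 1 and 2, and 3 with the replicate block; the cause was not tested. The 2 arrays of time 0 limit every comparison with time 0, and 29 rises had a time 0 mean below the 25th percentile of signal, where log2 differences depend on the offset. Promoter motifs were not run.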

Other observations

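Of 69 plastid-encoded genes with a named probe set, a group looked at after values were seen, 58 (84.1%) had a higher mean log2 signal at 15 than at 9 min of KCl, against 45.0% of all probe sets. Among times, 5 of the 69 (7.25%) passed the F test, against 1.87% of all probe sets: the ribosomal protein gene rps15, accD, a subunit of the carboxylase of fatty acid synthesis, ndhD, a subunit of the NADH dehydrogenase-like complex, the photosystem I subunit psaI and ccsA of cytochrome c assembly. The gene ndhD read 753 and 625 at 9 min, 1458 and 1636 at 12 min, 1845 and 1592 at 15 min, against 1148 and 591 at time 0, and accD read 320.0 and 301 at 9 min, 625 and 832 at 12 min, 1135 and 844 at 15 min, against 413 and 237 at time 0. The time 0 arrays differed from each other in both. Against time 0, rps15 alone of the 69 passed, at 232 and 174 at 9 min, 356 and 353 at 12 min, 855 and 657 at 15 min, against 163 and 122 at time 0. Plastid genes lie close together in operons, so their values are not independent, and the bright spike-ins at 12 and 15 min moved with them; the part of either was not tested.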
